A study of Mus musculus with 4 samples.

Results

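Most of the genes described here encode proteins that repackage the genome of the haploid germ cell. They were the protamines *Prm1* and *Prm2*, the protamine-like gene *Prm3*, the transition protein genes *Tnp1* and *Tnp2*, and the spermatid linker histone genes *H1fnt* and *Hils1*. They were chosen by gene name, and all 7 names had a row among the 24411 gene rows of each expression table. RNA had been sequenced from GFP-positive cells sorted from the testis at postnatal day 18 (P18), with 2 control libraries (*Zfp541*+/-) and 2 libraries labelled *Zfp541* KO, called control 1, control 2, KO 1 and KO 2 below. ZFP541 is a zinc-finger protein of pachytene spermatocytes, and the KO allele is a multi-exon deletion made by CRISPR/Cas9. Every animal carried *Rec8-3xFLAG-HA-p2A-GFP* as a knock-in allele, which makes GFP along with the meiotic cohesin REC8, so that sorting enriches cells in meiotic prophase. Each library came from 1 testis. The knock-in was homozygous in both KO testes and in 1 control testis and heterozygous in the other control testis, and the labels do not say which control that was. The strain is given as C57BL/6 and CBA mixed. The transcript of the targeted gene did not fall with the label. *Zfp541* was at 112 TPM (a transcript level corrected for length and scaled to one total in every library) in control 1, 72.2 TPM in control 2, 136 TPM in KO 1 and 151 TPM in KO 2, so the genotype of each library, and every direction drawn from it, rests on its label. These values are per gene, so reads from exons inside and outside the deletion were not told apart. The 10 pachytene markers given with the stage markers all had a negative KO minus control difference over all libraries. That count leans on control 1, since *Clgn*, 1 of the 10, was lower in control 2 than in both KO libraries. For *Piwil1*, *Adam2* and *Ybx2*, also among the 10, control 2 lay between KO 1 and KO 2. The 2 controls stood far apart in RNA of other testis cells, with Leydig cell markers that summed to 2910 TPM in control 1 and 18.0 TPM in control 2, and each tested comparison of a member is therefore also given without each of them.

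In the mouse, histones are removed from chromatin after meiosis, while round spermatids become elongating spermatids. Transition proteins take their place for a short time and are then replaced by protamines, small arginine-rich proteins that hold the sperm DNA in its most compact form. The mRNAs of these proteins are made in round spermatids and stored until elongation, when they are translated. Spermatids of the first spermatogenic wave are generally seen a few days after the age sampled here. The level of these transcripts at P18 therefore describes cells that have, for the most part, not reached the stage at which they are abundant. Because the libraries are bulk RNA, fewer cells that express a gene and less RNA per cell cannot be told apart.

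*Tnp2*, *Prm3*, *Prm2* and *Prm1* lie in this order within 8889 bp of chromosome 16 (10787935 to 10796823, mouse build GRCm38, mm10), all on the minus strand. *Tnp1* is a gene of 2 exons on the minus strand of chromosome 1 (73015074 to 73015899). *H1fnt*, named H1f7 in RefSeq, has 1 exon on the minus strand of chromosome 15 (98255982 to 98257307). *Hils1* has 1 exon on the plus strand of chromosome 11 (94967593 to 94968456), inside an intron of the sarcoglycan gene *Sgca*, which runs the other way. The bases before the RefSeq start of 4 members are shown because promoters of this family are known for binding sites of CREM, the activator of many spermatid genes, and for TATA boxes near the start. Each line gives 100 bases of the RefSeq build GRCm38.p6, 5′ to 3′ on the gene's own strand and ending 1 base before the start, with capitals for the motif found by search.
*Tnp1* (chr1:73015900-73015999): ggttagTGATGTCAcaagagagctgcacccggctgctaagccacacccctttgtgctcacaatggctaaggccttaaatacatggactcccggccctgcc
*Prm3* (chr16:10790915-10791014): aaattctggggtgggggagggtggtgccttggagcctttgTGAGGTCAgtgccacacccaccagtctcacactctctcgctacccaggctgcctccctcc
*Tnp2* (chr16:10788656-10788755): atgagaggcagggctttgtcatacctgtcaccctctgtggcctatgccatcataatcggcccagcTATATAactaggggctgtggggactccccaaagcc
*Prm2* (chr16:10792106-10792205): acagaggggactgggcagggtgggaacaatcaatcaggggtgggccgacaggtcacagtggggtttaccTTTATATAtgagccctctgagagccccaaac

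The motifs were searched on both strands of the 250 bases before the start. TGANGTCA, a cAMP-response-element-like motif that includes the full element TGACGTCA, was found before *Tnp1* at positions -94 to -87, before *Prm3* at -60 to -53 and before *Prm1* at -64 to -57. It occurred in 7.49% of the 32851 promoter windows of the table. The full TGACGTCA occurred in 1.55% of windows and before no member. TATATA was found before *Tnp2* at -35 to -30 and before *Prm2* at -29 to -24, and in 5.25% of all windows. TATAAA was found on the minus strand of the *Prm2* window at -31 to -26, overlapping its TATATA, and in 12.4% of all windows. A match of this kind describes the letters of the window and is not evidence that a factor binds there.

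The transcripts of spermatid chromatin packaging were at or near 0 in these sorted cells. Of the 28 values for the 7 members in 4 libraries, 17 were 0 TPM and 11 were above 0. *Prm3* and *H1fnt* were at 0 in all 4 libraries. The highest value was *Tnp2* in control 1, at 7.59 TPM, which lay above 55.9% of all gene rows of that library. The summed level of the 7 members was 12.4 TPM in control 1, 0 TPM in control 2, 2.6 TPM in KO 1 and 2.45 TPM in KO 2. The 2 controls were thus the highest and the lowest of the libraries, with both KO libraries between them.

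**Figure D1:**
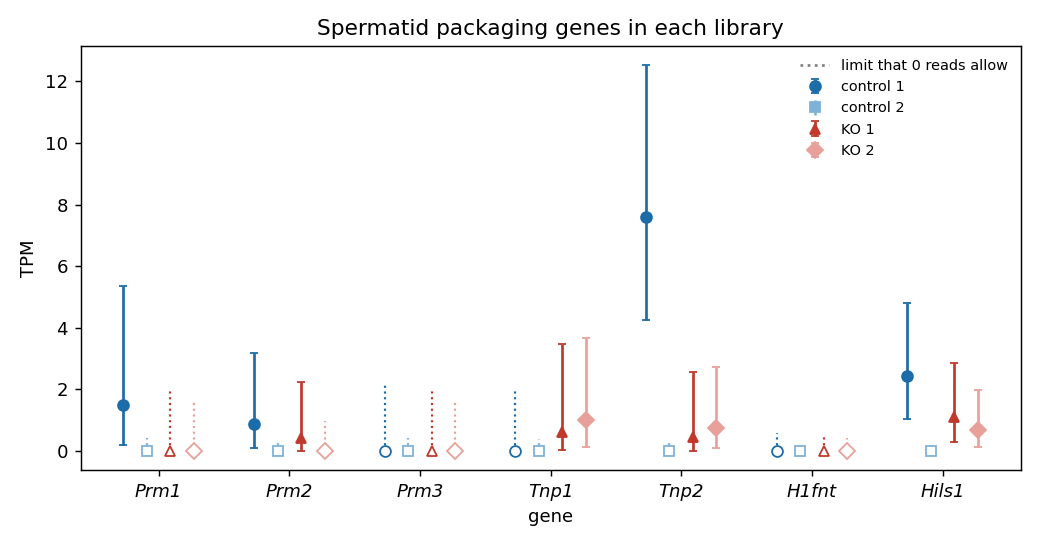
Level of the 7 members (x axis) in TPM (y axis) in each library. Filled symbols with bars show values above 0 with the 95% exact Poisson interval of the reads behind them, and open symbols show 0 with a dotted line up to the level that 3 reads would give. *Tnp2* in control 1, at 7.59 TPM, stands above every other value, and control 2 is at 0 for all 7 genes.

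*Prm1*, which encodes the protamine shared by mammals, was at 1.48 TPM in control 1 and at 0 TPM in control 2, KO 1 and KO 2. *Prm2*, which encodes the second protamine of the mouse, made as a precursor that is later cleaved, was at 0.89 TPM in control 1, 0 TPM in control 2, 0.41 TPM in KO 1 and 0 TPM in KO 2. For both protamines the groups overlapped, since control 2 was at 0. *Prm3*, which lies between *Prm2* and *Tnp2* and encodes an acidic protein despite its name, had no signal in any library.

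*Tnp1*, which encodes the smaller and more abundant transition protein, was at 0 TPM in both controls, 0.62 TPM in KO 1 and 1.02 TPM in KO 2. It was the only member for which the 2 groups did not overlap. Over all 19312 gene rows above 0 in any library, both KO libraries lay above both controls for 32.9%, and among the 4800 of these rows with a mean under 1 TPM, as for *Tnp1*, for 15.5%. The order seen for *Tnp1* was therefore a common one. *Tnp2*, which encodes a zinc-binding transition protein, was at 7.59 TPM in control 1, 0 TPM in control 2, 0.46 TPM in KO 1 and 0.75 TPM in KO 2. The control values lay on either side of both KO values, and the difference between the controls was larger than that between the groups.

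*Hils1*, which encodes a linker histone of elongating spermatids, was at 2.44 TPM in control 1, 0 TPM in control 2, 1.11 TPM in KO 1 and 0.68 TPM in KO 2. It showed the same order of libraries as *Tnp2* at its 2 ends, control 1 highest and control 2 lowest. *H1fnt*, which encodes the linker histone H1T2 found at the apical side of the round spermatid nucleus, was at 0 TPM in every library. *Prm1*, *Prm2*, *Tnp2* and *Hils1* had a value above 0 in control 1, and none of the 7 members had one in control 2. The number above 0 was 4 in KO 1 and 3 in KO 2.

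How many sequenced reads stand behind these values could be worked out from the tables. For low genes with 1 annotated transcript, TPM multiplied by the effective length (transcript length less 74 nt) fell on whole multiples of a fixed step in each library, the worth of 1 read. The step was found from 211 to 296 genes per library, and of those under 8 reads (66 genes in control 2 and 262 to 264 in the others) between 90.9% and 95.1% lay within 0.2 of a whole number. One read on 1000 nt of effective length was worth 0.241 TPM in control 1, 0.0473 TPM in control 2, 0.220 TPM in KO 1 and 0.179 TPM in KO 2. At the same TPM, control 2 thus held 5.10 times as many reads as control 1. The library in which no member was seen was the one in which a read was worth least, and it also had the most gene rows at 0, 31.3% against 26.7% to 27.6% in the others.

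**Figure D2:**
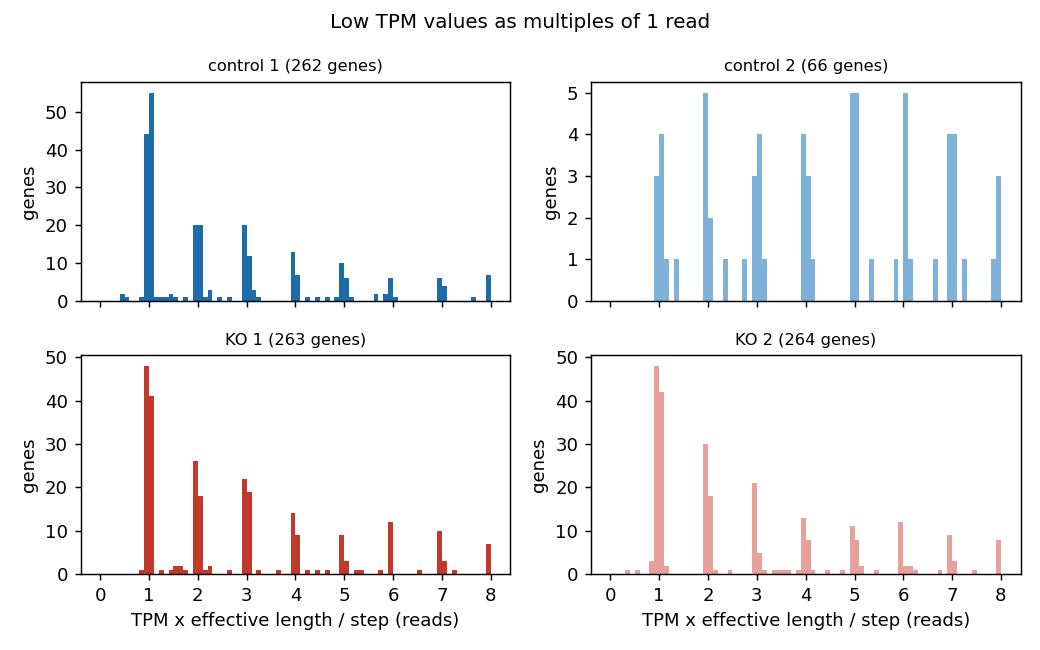
Number of genes (y axis) by TPM multiplied by effective length and divided by the step of the library (x axis, in reads), for genes under 8 reads, in 1 panel per library. The values gather at whole numbers in all 4 libraries, and 66 genes fall in this range in control 2 against 262 to 264 in the others.

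All 11 member values above 0 lay within 0.031 of a whole number of reads. The step had been found from genes that included *Hils1* in control 1 and the KO libraries, and *Tnp1* and *Tnp2* in the KO libraries. For those values this is no separate check. The *Tnp2* value of control 1 stood for 15 reads, with a 95% exact Poisson interval of 4.25 to 12.5 TPM. Its KO values stood for 1 read in KO 1 (0.0117 to 2.57 TPM) and 2 reads in KO 2 (0.0912 to 2.72 TPM). The 0 of control 2 allows up to 0.298 TPM, the level that 3 reads would give. The low end of the *Tnp2* interval of control 1 was 14.3-fold above this limit, and the interval lay above those of both KO libraries. These intervals and limits cover counting error only and leave out variation between testes and sorts. They are also too narrow where reads come from 1 PCR product, since such reads are not separate molecules.

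*Hils1* rested on 8 reads in control 1 (1.05 to 4.81 TPM), 4 reads in KO 1 (0.303 to 2.85 TPM) and 3 reads in KO 2 (0.140 to 1.99 TPM). Its 0 in control 2 allows up to 0.179 TPM, and the low end of the interval of control 1 was 5.87-fold above this limit. The intervals of control 1 and both KO libraries overlapped. This does not exclude a difference between these 3 libraries, and no count test was run. Reads of *Hils1* and of the *Sgca* intron around it cannot be told apart, because the library kit does not mark the strand. *Sgca* itself was at 17.2 TPM in control 1, 6.95 TPM in control 2, 5.40 TPM in KO 1 and 7.42 TPM in KO 2, also highest in control 1. Its part in the *Hils1* values was not tested.

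The remaining members rested on 1 or 2 reads wherever they were seen. *Prm1* stood for 2 reads in control 1 (0.179 to 5.34 TPM), and its 0 values allow up to 0.435 TPM in control 2, 2.02 TPM in KO 1 and 1.65 TPM in KO 2. *Prm2* stood for 2 reads in control 1 (0.106 to 3.17 TPM) and 1 read in KO 1 (0.0101 to 2.23 TPM), and allows up to 0.258 TPM in control 2 and 0.978 TPM in KO 2. At 1 or 2 reads, the levels of *Prm1* and *Prm2* in control 1 and the KO libraries could not be ranked.

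*Tnp1* stood for 1 read in KO 1 (0.0158 to 3.47 TPM) and 2 reads in KO 2 (0.123 to 3.67 TPM). The limit of its 0 was 2.05 TPM in control 1, above both KO values. It was 0.402 TPM in control 2, below both KO values but inside both of their intervals. At 1 and 2 reads, the *Tnp1* levels of the KO libraries could not be ranked against either control. The antisense gene 1700027A15Rik shares 74 exon bases with *Tnp1* and was at 0 TPM in control 1, control 2 and KO 1 and at 0.52 TPM in KO 2, where reads of the shared bases cannot be assigned to a strand. The 0 of *Prm3* allows up to 2.17 TPM in control 1, 0.426 TPM in control 2, 1.98 TPM in KO 1 and 1.61 TPM in KO 2. *H1fnt* has the longest transcript of the members, and its 0 allows no more than 0.578 TPM in control 1, 0.113 TPM in control 2, 0.527 TPM in KO 1 and 0.430 TPM in KO 2.

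Summed over the 7 members there were 27 reads in control 1, 0 in control 2, 7 in KO 1 and 7 in KO 2. At the depth of control 2, the same levels would have given 138 reads for control 1, 32.6 for KO 1 and 26.6 for KO 2. Of the 27 reads of control 1, *Tnp2* and *Hils1* held all but 4.

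The comparison of genotypes asks whether the packaging genes differ when ZFP541 is lost. It was made with limma on log2(TPM + 1) over the 14512 genes whose mean reached 1 TPM, a scale that understates differences of low genes. Of the 7 members, *Tnp2* and *Hils1* passed the filter and were tested. Both passed only through control 1, since their mean over the other 3 libraries was 0.403 TPM for *Tnp2* and 0.597 TPM for *Hils1*, so the tests rest on the same high value. *Tnp2* had a log2 difference (KO minus control) of -0.87 (SE 1.13, adjusted p = 0.734 from limma), and *Hils1* one of 0.022 (SE 0.72, adjusted p = 0.991 from limma). Neither difference was larger than its standard error.

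At an FDR of 0.05, 0 of the 2 members tested and 0% of all 14512 genes were called by limma. At an unadjusted p under 0.05 the members again gave 0, against 14.4% of all genes. The call for *Tnp2* depended on the control library. Without control 2 its log2 difference was -2.43 (adjusted p = 0.0228 from limma), in a fit that called 28.4% of all genes and that kept the control value through which *Tnp2* had passed the filter. Without control 1, where 48.1% of all genes were called, it was 0.68 (adjusted p = 0.0996 from limma), the opposite direction. *Hils1* moved in the same way, to -0.87 without control 2 (adjusted p = 0.0870 from limma) and 0.91 without control 1 (adjusted p = 0.0600 from limma). Its direction also turned under median-ratio scaling (-0.0532) and quantile normalization (-0.18).

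The members under the filter had differences that were not tested, of -0.66 for *Prm1*, -0.21 for *Prm2* and 0.86 for *Tnp1* on the log2(TPM + 1) scale. With no filter, limma gave them adjusted p = 0.624, 0.835 and 0.363. *Prm3* and *H1fnt* have no difference to report, since both groups were at 0. Across all genes tested the median log2 difference was 0.28, which went to -0.0044 after median-ratio scaling, so log2 differences below are best read against this median.

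RNA of cells other than those sorted for differed between the libraries. The summed level of 6 Leydig cell markers, genes of the steroid-producing cells between the tubules, was 2910 TPM in control 1, 18.0 TPM in control 2, 331 TPM in KO 1 and 504 TPM in KO 2. The summed level of 5 macrophage markers was 1578, 15.3, 1296 and 932 TPM in the same order of libraries. Both lists were highest in control 1 and lowest in control 2, as the summed level of the members was. In control 1 that sum was mostly *Tnp2* and *Hils1*. *Tnp1* was instead at 0 TPM in control 1 and highest in KO 2, and *Prm3* and *H1fnt* were at 0 throughout. How many gene rows shared the order of the sum was not counted. All 6 Leydig cell markers were above 0 in 3 libraries, and in control 2 only *Lhcgr*, the luteinizing hormone receptor (named for this value), was at 0. All 5 macrophage markers were above 0 in every library. The part of these cells, or of cells outside the sort in general, in the level of the members was not tested.

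The 6 markers of the sorted meiotic cells, cohesins and parts of the synaptonemal complex, were all present and summed to 2759 TPM in control 1, 3111 TPM in control 2, 5172 TPM in KO 1 and 5559 TPM in KO 2. *Rec8*, whose tagged allele drives the sort, was at 7.05 TPM in control 1, 27.9 TPM in control 2, 27.7 TPM in KO 1 and 19.4 TPM in KO 2. The library in which the summed members were highest was thus the lowest in *Rec8*. The 6 Sertoli cell markers were all above 0. Their sum ran from 491 TPM in control 1 to 1151 TPM in control 2, opposite to the sum of the members. Most of that sum was *Aard* (377 and 951 TPM). *Aard*, *Amh* and *Rhox5* were highest in control 2, but *Sox9*, *Wt1* and *Cldn11* in KO 1. The 4 peritubular myoid cell markers summed to 12.2 to 23.9 TPM and the 9 spermatogonia markers to 264 to 772 TPM, both also lowest in control 1. The 6 red blood cell markers, globins and a heme synthesis gene, were lowest in control 2 at 28.8 TPM and highest in KO 2 at 374 TPM.

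**Figure D3:**
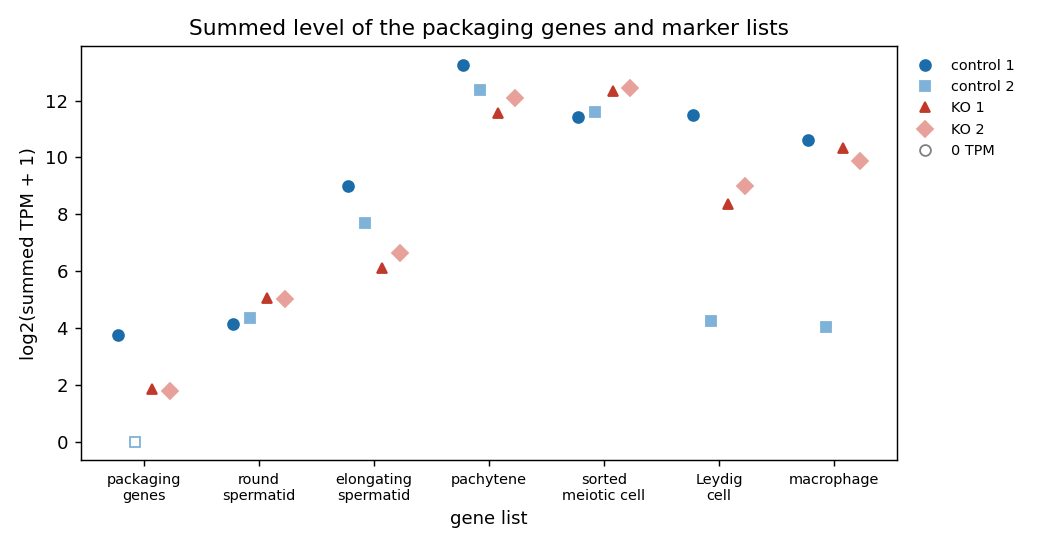
Summed TPM of the packaging genes and of 6 marker lists (x axis), as log2(summed TPM + 1) (y axis), in each library. The packaging genes sit at 0 to 12.4 TPM, and control 1 and control 2 are the highest and the lowest library for them and for the Leydig cell and macrophage lists.

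Other genes known from spermatids were present at uneven levels. Of 10 round spermatid markers, 2 had a mean above 1 TPM. They were *Spaca1*, an acrosomal membrane protein, at 7.34 TPM in control 1, 13.9 TPM in control 2, 27.0 TPM in KO 1 and 26.6 TPM in KO 2, and *Tssk1*, a testis-specific kinase, at 6.81, 2.6, 1.99 and 3.61 TPM. The sperm-egg fusion gene *Izumo1* stayed between 0.63 and 1.77 TPM and the kinase *Tssk2* between 0.16 and 1.92 TPM. Control 2 had signal in 4 of the 10 markers. Of genes named after their values were seen, *Spaca7* was at 0 in every library and the acrosomal gene *Acrv1* was at 0.24, 0, 0.21 and 0.35 TPM in control 1, control 2, KO 1 and KO 2.

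Among 10 elongating spermatid markers, 6 passed the filter. *Tcp11*, needed for sperm motility, stood far above the others, at 490.1 TPM in control 1, 189 TPM in control 2, 37.3 TPM in KO 1 and 68.7 TPM in KO 2. Its log2 difference was -2.56 (SE 0.58, adjusted p = 0.310 from limma), with both KO libraries below both controls, an order found for 11.5% of gene rows above 0. The antizyme gene *Oaz3* (9.05 to 14.9 TPM), the kinase *Tssk6* (2.56 to 8.83 TPM) and the fibrous sheath gene *Cabyr* (2.63 to 3.93 TPM) were the next in level. The sperm tail genes *Odf1* and *Akap4*, named after their values were seen, reached at most 0.69 and 0.08 TPM, in KO 2 and KO 1. None of the 8 genes tested in the 2 spermatid lists together passed the FDR of 0.05 by limma.

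**Figure D4:**
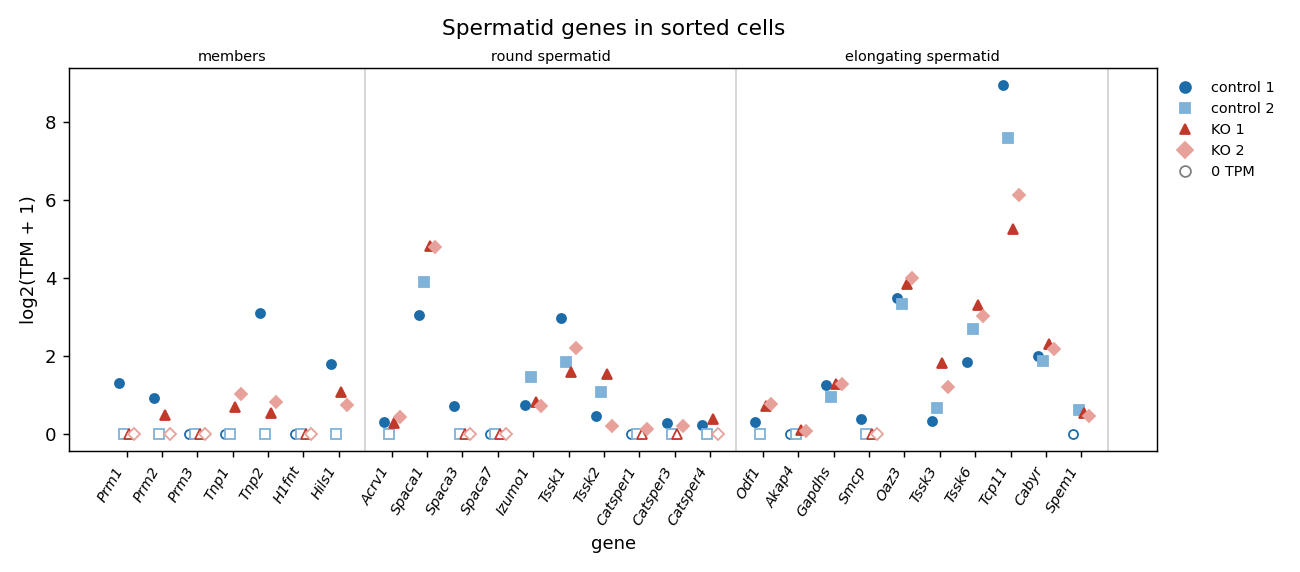
Level of the members and of round and elongating spermatid markers (x axis) as log2(TPM + 1) (y axis), 1 symbol per library, open where the value is 0. Most spermatid genes lie near 0 as the members do, while *Tcp11* and *Spaca1* are well above, at up to 490.1 and 27.0 TPM.

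The other linker histones were measured as mRNA in the same cells. Of 9 genes, *H1fx* and *H1f0*, 2 variants with polyadenylated mRNA, were the most abundant. *H1fx* was at 230.5 TPM in control 1, 351 TPM in control 2, 298 TPM in KO 1 and 270 TPM in KO 2, and *H1f0* at 85.9, 95.1, 106 and 103 TPM. Their log2 differences were -0.0043 (adjusted p = 0.995) and 0.21 (adjusted p = 0.601), both from limma.

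*Hist1h1t*, the testis-specific H1t that marks spermatocytes from mid pachytene on, was at 2.55 TPM in control 1, 2.44 TPM in control 2, 1.00 TPM in KO 1 and 2.44 TPM in KO 2. *Hist1h1a*, the H1 variant of spermatogonia and early spermatocytes, was at 2.15, 5.93, 6.53 and 4.26 TPM, and *Hist1h1c* at 16.9, 4.45, 12.8 and 7.38 TPM. The groups overlapped for these 3 genes. *Hist1h1b*, *Hist1h1e* and the oocyte form *H1foo* stayed at or under 1.53 TPM, and *Hist1h1d* was at 0 throughout. Genes of the histone clusters make mRNA that mostly lacks a poly(A) tail, and these libraries were made from polyadenylated RNA. The part of that selection in the low values of the clustered genes was not tested. Of the 9 genes, 5 were tested, 3 with a positive and 2 with a negative difference, and 0 passed the FDR by limma, with a median of 0.12 against 0.28 over all genes. This median turned to -0.14 without control 1, -0.023 without KO 1 and -0.16 after median-ratio scaling.

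**Figure D5:**
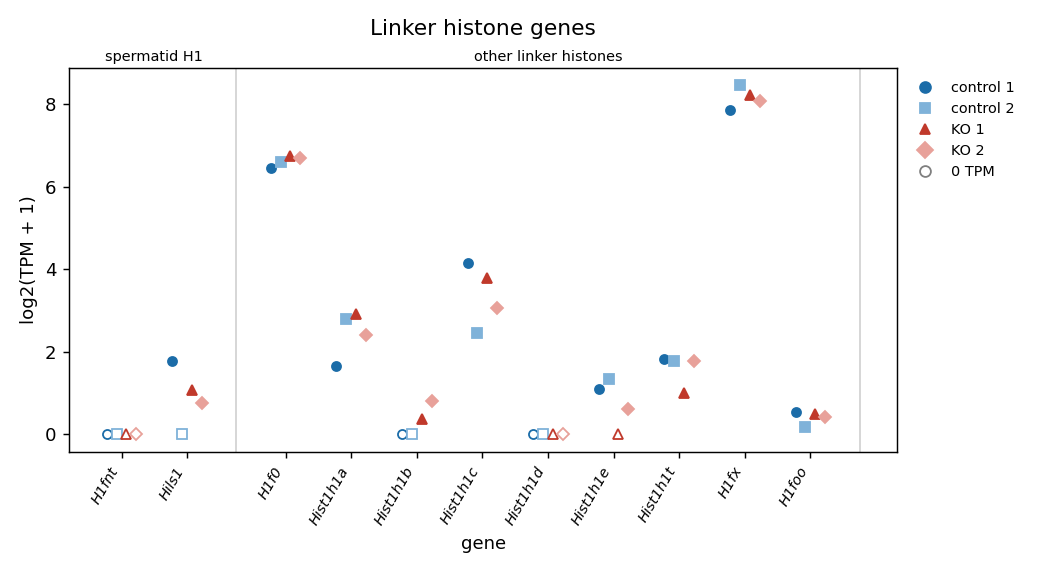
Level of the spermatid linker histones *H1fnt* and *Hils1* and of the other linker histone genes (x axis) as log2(TPM + 1) (y axis), 1 symbol per library, open where the value is 0. *H1fx* (230.5 to 351 TPM) and *H1f0* (85.9 to 106 TPM) are the highest in every library, while *H1fnt* and *Hist1h1d* are at 0.

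The mRNA values of testis-specific core histones, which loosen nucleosomes before the exchange, were likewise low in these libraries. *Hist1h2ba*, the testis H2B, was at 11.8 TPM in control 1, 14.3 TPM in control 2, 9.87 TPM in KO 1 and 12.1 TPM in KO 2, and its partner *Hist1h2aa*, the testis H2A, at 2.55, 3.51, 3.48 and 3.31 TPM. *Hist1h2ba* and *Hist1h2aa* are also genes of the histone clusters, and the part of poly(A) selection in their values was not tested. *H2afb3*, a short H2A variant, was at 4.4 TPM in control 1 and 1.9 TPM in control 2, and was listed at 0 in KO 1 and KO 2 (adjusted p = 0.310 from limma). Its order, both KO libraries below both controls, was found for 11.5% of gene rows above 0. *H2afb1*, *H2afb2* and 1700024P04Rik were at 0 in all libraries, and near-identical copies of the H2afb genes can share reads. Of the 11 genes of this list 6 had a row and 3 were tested, with a median log2 difference of -0.23 and 0 past the FDR by limma.

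Most regulators known to act on genes of this kind were expressed far above the members. Of 12 genes known for transcription of spermatid genes, 11 passed the filter. The 4 most abundant were *Taf7l*, a testis form of a TFIID subunit, at 160.1 to 387 TPM, the bromodomain gene *Brdt* at 150.5 to 315 TPM, the histone demethylase gene *Kdm3a* at 130.3 to 266 TPM and *Tcfl5*, a helix-loop-helix factor of spermatocytes, at 147 to 352 TPM. *Crem*, named after its values were seen, was at 91.5 TPM in control 1, 52.7 TPM in control 2, 70.2 TPM in KO 1 and 85.5 TPM in KO 2 (log2 difference 0.15, adjusted p = 0.846 from limma). Its coactivator gene *Fhl5*, also named after the fact, was at 0.23 TPM in control 1 and 0 TPM elsewhere.

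In this list 8 differences were positive and 3 negative, where 69.0% of all genes tested were positive, and 0 passed the FDR by limma. The median of 0.51 was 0.19 after median-ratio scaling and 0.043 without control 2. *Gtf2a1l*, the testis form of TFIIA and likewise chosen after its values were seen, was at 115 TPM in control 1, 49.8 TPM in control 2, 10.5 TPM in KO 1 and 17.0 TPM in KO 2. Its log2 difference was -2.42 (adjusted p = 0.310 from limma). Both KO libraries lay below both controls, an order found for 11.5% of gene rows above 0.

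The factors that store and later translate the members' mRNA were among the more abundant transcripts of these cells. *Ybx2*, the Y-box protein that holds protamine mRNA in store, was at 2137 TPM in control 1, 1185 TPM in control 2, 1004 TPM in KO 1 and 1362 TPM in KO 2. *Ybx3*, a related Y-box protein, was at 1588, 499, 314 and 482 TPM, *Ddx4*, the germ cell RNA helicase, at 653, 397, 741 and 812 TPM, and *Fxr1*, which activates stored spermatid mRNA, at 413, 238, 417 and 451 TPM. The groups overlapped for *Ybx2*. Both KO libraries lay below both controls for *Ybx3* and above both for *Ddx4* and *Fxr1*, orders that held for 11.5% and 32.9% of all gene rows above 0. All 12 genes of the list were tested, 6 with a positive and 6 with a negative difference, and 0 passed the FDR by limma. The median was 0.080, and it turned to -0.25 without control 2, -0.24 after median-ratio scaling and -0.041 after quantile normalization.

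Genes for histone removal and for handling basic proteins were mostly well above the level of the members. The 4 most abundant of 12 were *Hspa2*, a chaperone of the transition proteins, at 1346 TPM in control 1, 761 TPM in control 2, 1000.1 TPM in KO 1 and 1223 TPM in KO 2, *Phf7*, an H2A ubiquitin ligase, at 1486, 1026, 462 and 663 TPM, *Srpk1*, a kinase of protamine 1, at 308, 246, 267 and 291 TPM, and *Psme4*, a proteasome activator, at 126, 48.4, 94.2 and 93.6 TPM. Among these the groups did not overlap for *Phf7* (log2 difference -1.16, SE 0.34, adjusted p = 0.319 from limma). Its order, both KO libraries below both controls, was found for 11.5% of gene rows above 0. Of 11 genes tested 8 had a positive and 3 a negative difference, again near the share over all genes, and 0 passed the FDR by limma. The median was 0.20, and it turned to -0.12 after median-ratio scaling and -0.063 without control 2.

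Most stage markers of spermatocytes were well above the members. Some were low in places, as *Pgk2* at 1.59 and 2.71 TPM and *Ccna1* at 2.2 and 1.8 TPM in KO 1 and KO 2, and *Mei4* at 2.09 TPM in control 1. All 10 pachytene markers were above 0 in every library and summed to 9828 TPM in control 1, 5373 TPM in control 2, 3027 TPM in KO 1 and 4325 TPM in KO 2. All 10 differences were negative, with a median of -1.52 (-0.88 without control 1), and 0 passed the FDR by limma. The count of 10 leans on control 1, as *Clgn* was at 289 TPM in control 2 and at 379 and 510 TPM in KO 1 and KO 2. Control 2 lay between KO 1 and KO 2 for *Piwil1* (244 TPM against 238 and 364 TPM) and *Adam2* (165 TPM against 157 and 196 TPM). The same held for *Ybx2* (1185 TPM against 1004 and 1362 TPM). The most abundant were *Ldhc*, the sperm lactate dehydrogenase, *Ybx2*, *Meig1* and the testis chaperone gene *Clgn*, and *Ldhc* was at 3659, 1819, 768 and 1230 TPM. Control 1 was the highest library for this list as for the summed members, but control 2 was the second highest here and the lowest there. The 8 leptotene and zygotene markers with a row had 7 positive differences and 1 negative, with a median of 1.03 (0.66 without control 1) and 0 past the FDR by limma.

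Genes on either side of the chromosome 16 cluster were expressed above its members in most libraries. *Socs1*, a cytokine signalling inhibitor 2.4 kb from *Tnp2*, was at 6.73 TPM in control 1, 13.4 TPM in control 2, 6.89 TPM in KO 1 and 5.62 TPM in KO 2. It was highest in the library where all 4 clustered members were at 0. *Clec16a*, 43.1 kb away on the same side, was at 26.4, 12.8, 21.2 and 23.7 TPM. It was highest in control 1 and lowest in control 2, as the summed level of the members was. On the *Prm1* side, *Rmi2*, 38.2 kb away, was at 4.2, 6.28, 10.47 and 10.05 TPM, and the nearer gene Gm11172 had no row.

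The genes nearest in pattern to *Tnp2* and *Hils1* were sought among all genes whose mean reached 1 TPM, by the root mean square difference over the 4 libraries between centred log2(TPM + 1) values and the mean centred profile of these 2 members. The 5 nearest were *Acsbg1* (0.0442), *Nxpe3* (0.0568), *Cpne2* (0.0602), *Prss42* (0.0628) and *Ehbp1l1* (0.0732). *Acsbg1*, an acyl-CoA synthetase of brain and testis, was at 391.78 TPM in control 1, 75.9 TPM in control 2, 129 TPM in KO 1 and 133 TPM in KO 2. *Prss42*, a testis serine protease, was at 42.4, 6.91, 14.5 and 12.9 TPM. Both had the order of control 1 above the KO libraries above control 2, which the search itself selects for. The profile searched with comes from 2 members that passed the filter only through control 1. Any 2 genes lie equally far from their mean profile, here 0.34 for *Tnp2* and *Hils1*. Among the 14512 genes whose mean reached 1 TPM, 407 others were as near. The pattern was thus shared by other transcripts and rests on 4 libraries.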

How the data were processed

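The authors trimmed 75 nt single-end reads with Trim Galore 0.5.0 and cutadapt 1.16, aligned them to UCSC mm10 with STAR 2.6.0a and estimated expression with RSEM 1.3.1, versions as in the submitters' processing notes. They deposited 1 table of TPM per library, a unit scaled to the same total in each. The libraries were made from polyadenylated RNA with a kit that does not mark strand. The members, gene lists and markers were chosen with earlier results of these data known.

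Groups came from the sample labels. Tests used limma 3.58.1 in R 4.3.3 on log2(TPM + 1), with a minimum mean of 1 TPM over the 4 samples, a mean-variance trend, two-sided p and Benjamini-Hochberg adjustment over all 14512 genes at an FDR of 0.05. The samples are single testes, 2 per group, and an exact permutation of 2 against 2 was not used as it cannot reach this level. The study used RSEM and reported genes changed in both directions between these groups at an FDR of 0.05. That comparison needs estimated counts and was not repeated, so the absence of calls applies to limma on these TPM values. In the tables, 27 row names had been turned into dates and were left as they are.

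The worth of 1 read was found after the data had been seen, from genes with 1 RefSeq and 1 GENCODE transcript and an effective length of 150 to 1200 nt. Intervals are 95% exact Poisson intervals. The limit of a 0 is 3 reads, where that interval would reach 3.69 reads, so fold gaps from the limit would be smaller with the interval. No count test was run on these reads. All members were named, with all linker histones, the 4 most abundant measured genes of the other lists of spermatid biology, the 5 nearest profiles, the 2 nearest protein-coding genes on each side of the cluster, *Zfp541* and *Rec8*. Promoter sequences came from RefSeq (GRCm38.p6), and all 7 members matched. Python 3.11.15, numpy 2.4.6, pandas 2.3.3, scipy 1.17.1 and matplotlib 3.10.9 were used. Scripts were tested on simulated data. Alternatives covered the pseudocount, filter, scaling, variance model, replicate block and each library left out. The crossed block was added after the data had been seen.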

Additional observations from a re-analysis of the deposited data

How the results depend on the processing

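With 2 libraries per group and at most 15 reads behind a member, depth and the gap between the controls limit every comparison of the members, and no setting with all 4 libraries called one. The fit without a library assumes that the remaining sample of that group varies like the other pair. Leaving out a library moved the count of genes past the FDR by limma over 0 to 5610 higher and 0 to 1875 lower: without control 1 there were 5610 higher and 1375 lower, without control 2 there were 2248 higher and 1875 lower, and without either KO library there were 0. The log2 difference ranged over leave-one-out fits from -1.31 to 0 for *Prm1*, -0.67 to 0.25 for *Prm2*, 0.70 to 1.014 for *Tnp1*, -2.43 to 0.68 for *Tnp2* and -0.87 to 0.91 for *Hils1*. The call for *Tnp2* was gained without control 2 (adjusted p = 0.0228 from limma), and its direction turned without control 1. *Hils1* turned direction without control 2, without KO 1 (-0.14), at a pseudocount of 5 (-0.0501), after median-ratio scaling (-0.0532) and after quantile normalization (-0.18). A pseudocount of 0.1 moved *Prm1* to -1.99 and *Tnp1* to 3.17, and one of 5 moved *Tnp1* to 0.22. At 0.1 *Hils1* went to 0.95 and *Tnp2* to -0.35, with adjusted p = 0.824 and 0.957 from limma, as a difference against 0 depends on the added constant. A minimum mean of 5 TPM left no member to test, and no median over the members was computed, since only 2 passed the filter. Same-numbered samples deviated with a correlation of -0.16 and the labels do not say that the numbers pair animals. With the replicate block 0 genes passed the FDR, and adjusted p was 0.784 for *Tnp2* and 0.995 for *Hils1* (limma). With the crossed replicate block 7 genes were higher and 80 lower, none of them a member (adjusted p = 0.663 and 0.993).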
